A study of Talpa occidentalis and Mus musculus with 35 samples.

Results

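The tripartite motif (TRIM) genes of the Iberian mole, Talpa occidentalis, were described from the annotation of its genome assembly talOcc3. Members were the gene lines whose name, once a copy number or low-confidence mark at its end was dropped, began with TRIM or TRIML followed by a number. The rule found 141 loci under 54 symbols, of 23336 gene lines and 16196 symbols in the whole annotation. None of the 141 carried the low-confidence mark, and 63 of them were named TRIM38.

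The series holds 35 polyadenylated RNA libraries of gonads in 16 groups, 19 libraries from wild-type moles and 16 from mice. The mole groups are ovotestis and testis of embryonic day 15 with 2 libraries each, ovarian part, testicular part and testis of postnatal day 7 with 3 each, and the same tissues of adults with 2 each. The mouse groups are CD1 ovary and testis at embryonic day 13.5, postnatal day 7 and 10 weeks, and Fgf9 mutant and wild-type B6 ovaries at embryonic day 13.5 (2 each). The annotation gave no value per library, so expression in these groups was not analysed here, library depth is unknown, and every value below describes a gene model.

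TRIM proteins are ubiquitin ligases or their relatives, built from a RING domain, 1 or more B-boxes and a coiled coil, and sorted into subfamilies by the domain that follows. In many genes of the largest subfamily the first coding exon encodes the RING and B-box, short middle exons the coiled coil, and the last exon the PRY-SPRY domain, which binds the target. TRIM5 and TRIM21 act in this way on viral capsids and on antibody-bound viruses, and TRIM38 restrains signalling from Toll-like receptors through partners such as TRAF6 and TAB2. Members of the PRY-SPRY subfamily are known to differ in number between mammals.

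A single symbol held most of the extra TRIM loci. Of the 54 symbols, 44 had 1 locus and 10 (18.5%) had more, where 14.6% of all symbols in the annotation had more than 1. TRIM38 had 63 loci, TRIM5 had 11, TRIM61 had 6 and TRIM34 had 5. TRIM2, TRIM31, TRIM37, TRIM60, TRIM66 and TRIML2 had 2 each. Of the 87 loci beyond 1 per symbol, 62 were TRIM38. Only 5 symbols of the annotation had more loci than TRIM38, namely LOC107986724 (95), COX1 (80), ND1 (74), CYTB (71) and LOC105379528 (66). COX1, ND1 and CYTB are names of genes of the mitochondrial genome.

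**Figure D1:**
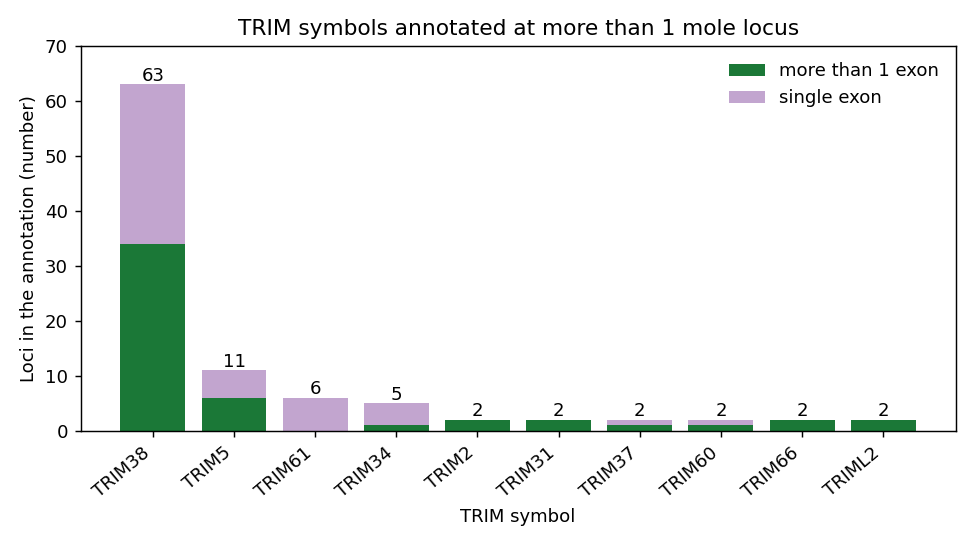
Number of loci (vertical axis) of the 10 TRIM symbols annotated more than once, with loci of a single coding exon in purple and loci of more than 1 in green. TRIM38 stands at 63 loci, 29 of them single-exon, and the next symbol, TRIM5, at 11.

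Short and single-exon models were common under the TRIM38 name. TRIM38 models had a median of 2 exons (95% interval of the median 1 to 3), against 5 (3 to 6) for the other 78 TRIM loci and 6 over all loci with a symbol. Their median coding length was 533 bases (504 to 666), against 1281 (1033 to 1422) and 1071. A single exon made up 29 of the 63 TRIM38 models, 46.0% (exact binomial 95% interval 33.4 to 59.1), and 21 of the other 78, 26.9% (17.5 to 38.2), where 24.7% of all gene lines had a single exon. Over all 141 TRIM loci the share was 35.5%. TRIM5 was alike, with medians of 2 exons (1 to 5) and 504 coding bases (450 to 1005). A single exon made up 5 of its 11 loci. TRIM34 had medians of 1 exon and 456 bases, and 4 of its 5 loci had a single exon. All 6 TRIM61 loci had a single exon, at a median of 1377 bases. TRIM37 and TRIM60 had 1 single-exon locus of 2 each, and TRIM2, TRIM31, TRIM66 and TRIML2 had none. The coding length was a multiple of 3, as an uninterrupted reading frame needs, in 43 TRIM38 models (68.3%) and in 71 of the other TRIM models (91.0%), against 89.0% of all loci with a symbol and 80.9% of all TRIM loci. These intervals count loci, which are not replicates.

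The score of each model was expressed as a percent of the highest score deposited for its symbol. The 10 TRIM38 loci at the top were, in order, at 100%, 99.9%, 91.7%, 90.7%, 88.3%, 85.7%, 83%, 82.8%, 82.5% and 63.2%, and the next was at 49.2%. The first 9 thus stood at 82.5% or more, the tenth apart from them, and the remaining 53 under 50%. For comparison, 28.8% of all loci of symbols with several loci were under 50% of their symbol's highest score. The median over the 63 loci was 29.4% (24.1 to 35.5), and the lowest was 12.1%. Each of the 10 loci at 50% or more had at least 5 exons, and 9 loci under 50% did as well.

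**Figure D2:**
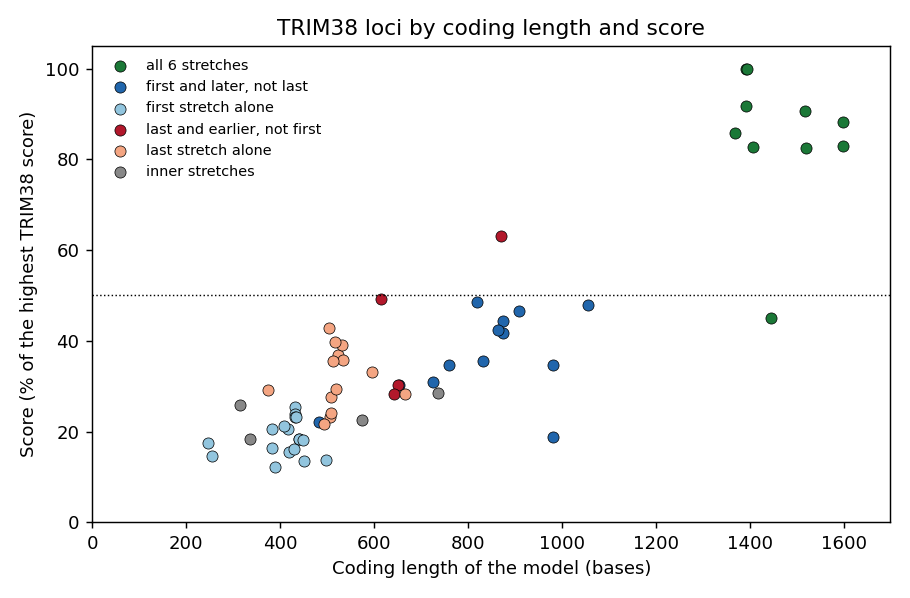
Score as a percent of the highest TRIM38 score (vertical axis) against coding length in bases (horizontal axis) for the 63 TRIM38 loci, 1 point each, coloured by the part of the reference they cover, with a dotted line at 50%. The points at 82.5% or more have coding lengths of 1368 to 1599 bases, and the models of the first or last stretch alone lie between 12.1% and 42.9%.

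The highest-scoring locus, named TRIM38 without a suffix, lay on scaffold 47 (4802949 to 4813233, plus strand) and had 6 coding exons of 411, 96, 231, 23, 113 and 521 bases. The mouse has 1 Trim38 gene, with a coding span on chromosome 13 from 23782572 to 23791492 (GRCm38, plus strand) and 6 coding exons of 417, 96, 231, 23, 113 and 533 bases. The inner 4 exons had the same lengths in both species, and the mole coding length of 1395 bases was 98.7% of the mouse's 1413. TRIM38_copy2, on scaffold 135 (45605 to 54359, minus strand), and TRIM38_copy3, on scaffold 47 (4722834 to 4759496, minus strand), had 6 exons and 1392 coding bases. TRIM38_copy6 and TRIM38_copy8, on scaffold 100 from 58780 to 67042 and from 19634 to 30267 on the plus strand, also had 6 exons, with 1368 and 1407 coding bases.

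Of the top 9, 4 had an extra exon. TRIM38_copy4, on scaffold 100 (147486 to 156451, minus strand), had 7 exons and 1518 coding bases, beginning with exons of 112 and 416 bases. TRIM38_copy9, on scaffold 121 (23829 to 33168, plus strand), had 7 exons and 1521 coding bases, beginning with 115 and 416. TRIM38_copy5, on scaffold 47 (4770962 to 4779516, minus strand), and TRIM38_copy7, on scaffold 121 (82272 to 92696, plus strand), had 7 exons and 1599 coding bases each, ending with 476 and 252 bases and with 479 and 249 bases. The extra exon was thus at the start in one pair and at the end in the other, and each pair was split between scaffold 121 and another scaffold. TRIM38_copy10, the tenth locus, on scaffold 146 (82046 to 90271, minus strand), had 5 exons and 870 coding bases.

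All 63 models were placed on 1 reference transcript, so the part of the gene that each covers could be compared. The exons of the highest-scoring locus divided the reference into 6 stretches, and a stretch counted as covered when a model's interval held at least 50% of it. All 6 stretches were covered by 10 loci (15.9%), with a median score of 87% of the highest and a range of 45.1% to 100%. The first stretch alone, where the RING and B-box lie in such genes, was covered by 18 loci (28.6%), of which 17 had a single exon, with scores of 12.1% to 25.5%. The last stretch alone, where the PRY-SPRY lies, was covered by 14 loci (22.2%), of which 12 had a single exon, with scores of 21.6% to 42.9%.

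The other 21 loci covered several stretches but not all. The first stretch and later ones, but not the last, were covered by 13 loci (20.6%), and the last and earlier ones, but not the first, by 4 (6.35%). Inner stretches, with under 50% of either end, were covered by 4 (6.35%). Single-exon models therefore fell on the long outer exons. All 10 loci covering the 6 stretches had a coding length that was a multiple of 3, as had 13 of the 18 with the first stretch alone and 6 of the 14 with the last alone. The last exon of the highest-scoring locus, 521 bases long, is not a multiple of 3 by itself, so a model of that part need not be. Over the 6 stretches in order, 41, 25, 24, 21, 24 and 28 loci covered at least 50% of the stretch, and no base was covered by more than 42 loci.

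**Figure D3:**
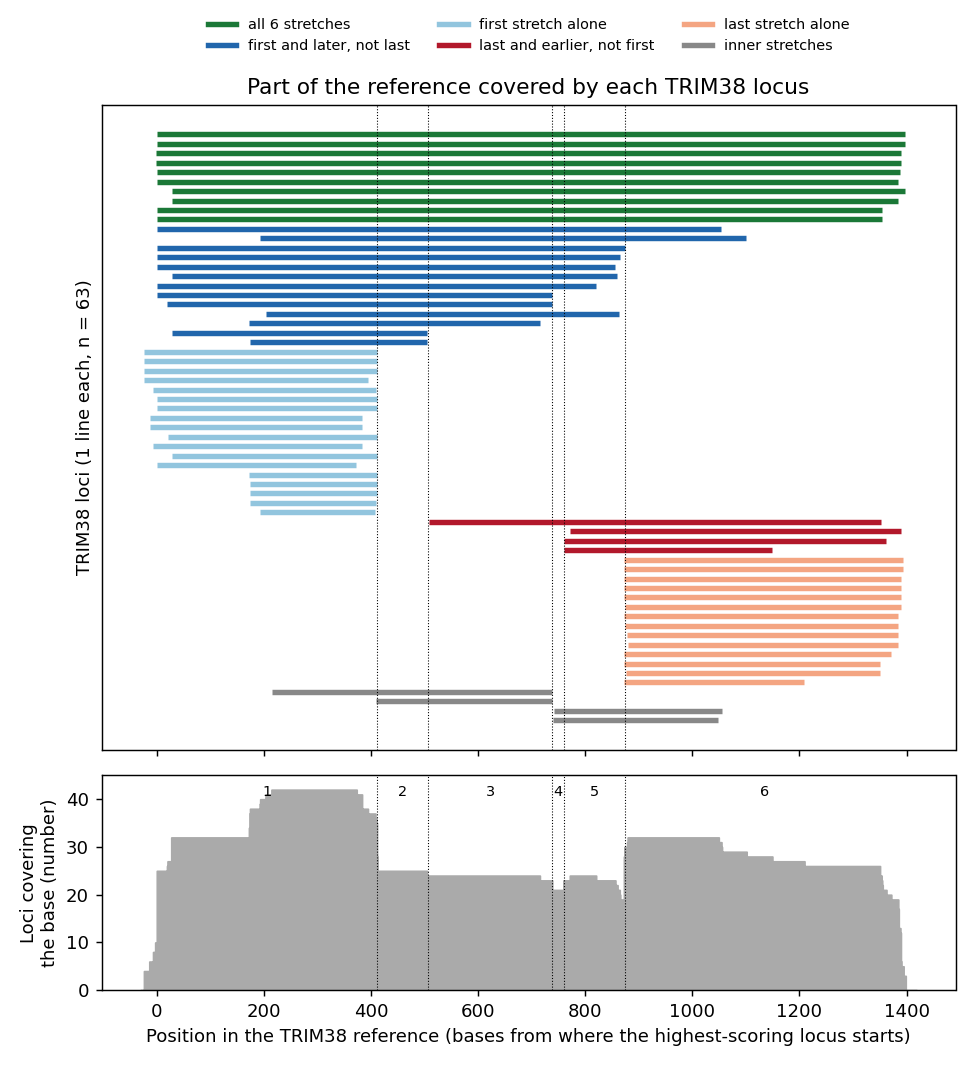
Upper panel, the interval of the reference covered by each of the 63 TRIM38 loci (1 line each, coloured by class), and lower panel, the number of loci covering each base; the horizontal axis is the position in bases from where the highest-scoring locus starts, and dotted lines are the borders of the 6 exon stretches. The light blue and orange lines, 18 and 14 loci, cover the first or last stretch alone; the mean number of loci per base is 36.8 over the first stretch and 21 over the fourth, and the number falls to 3 within the last stretch, at its end.

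The TRIM38 models shared the lengths of their inner exons with other TRIM genes. Coding exons of 96, 231 and 23 bases in a row occurred in 26 of the 23336 loci (0.111%), and 25 of the 26 were TRIM loci, under 13 symbols. TRIM38 had 12 of them, TRIM5 had 2, and TRIM6, TRIM10, TRIM15, TRIM21, TRIM27, TRIM31, TRIM34, TRIM39, TRIM41, TRIM72 and TRIML1 had 1 each. The remaining locus was the model named OR52H1, an olfactory receptor symbol, on scaffold 18 (41175627 to 41314780, minus strand). It had 8 exons of 429, 96, 231, 23, 101, 27, 65 and 987 bases, and lay 11.9 kb from TRIM34, whose exons were 285, 96, 231, 23, 101, 27 and 566 bases. In the mouse, 25 of 22028 coding genes had the row, namely 24 Trim genes and Fsd2.

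The exon after the row separated TRIM38 from the other members in the mole. It was 113 bases long in 11 of the 12 TRIM38 loci with the row and in 0 of the other 14. The exception was TRIM38_copy13, on scaffold 47 from 4825082 to 4842549, with 160 bases. TRIM10, TRIM15, TRIM27, TRIM31 and TRIM39 had 116 bases there, and TRIM5, TRIM6, TRIM21 and TRIM34 had 101, except for TRIM5_copy2 with 232. In the mouse an exon of 113 bases followed the row in 2 genes, Trim38 and Trim30c. These lengths come from gene models, and no bases were compared.

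The TRIM38 loci lay together and mostly on small scaffolds. They were spread over 18 scaffolds, and 12 of these, with 35 loci, held no other locus. Scaffolds whose annotation ended before base 1000000 held 57 of the 63 (90.5%) and 18 of the other 78 TRIM loci (23.1%). Such scaffolds held 8.34% of all loci with a symbol. TRIM38 was not alone in this. All TRIM5 loci but TRIM5_copy5, on scaffold 15, and all TRIM34 loci but the highest-scoring, on scaffold 18, also lay on such scaffolds. For 53 of the 55 TRIM38 loci with a neighbour on their scaffold, the nearest locus was also TRIM38 (96.4%, interval 87.5 to 99.6). Among all loci with a symbol and a neighbour, 12.5% had one of their own symbol nearest. The 2 shares are not alike. Scaffolds 100, 135, 146 and 397 held several TRIM38 loci and no other locus, so there the nearest locus had to be TRIM38. Loci were taken as tandem when at most 10 other loci lay between neighbours of the symbol. By that rule 7 TRIM symbols (13.0%) had tandem loci, where 8.33% of all symbols did: TRIM2, TRIM5, TRIM31, TRIM34, TRIM38, TRIM60 and TRIM61.

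TRIM38 formed 10 runs, and 8 loci stood alone. The longest run, on scaffold 100, had 14 loci over 156 kb, from TRIM38_copy38 to TRIM38_copy4, 8 on the plus and 6 on the minus strand. No other locus was annotated on that scaffold, so the run had no named flanks. Its 14 loci were 1.54 to 16.2 kb apart (median 8.57), 3 covered all 6 stretches and 9 had a single exon. The run on scaffold 61 had 9 loci over 554 kb, from TRIM38_copy48 to TRIM38_copy18, with none above 42.4% of the highest score. The run on scaffold 95 had 7 loci over 142 kb, from TRIM38_copy58 to TRIM38_copy25, with none above 49.2%. These 2 scaffolds together held 16 TRIM38 loci and none that covered all 6 stretches.

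The runs on scaffolds 135 and 146 had 5 loci each, over 90.4 and 73.3 kb, all on the minus strand. They ran from TRIM38_copy22 to TRIM38_copy45 and from TRIM38_copy24 to TRIM38_copy10, with 1 locus each covering all 6 stretches. Scaffold 121 had 4 loci over 68.9 kb, from TRIM38_copy9 to TRIM38_copy7, all on the plus strand, and 2 of them covered all 6. Scaffold 47 had 4 over 120 kb, from TRIM38_copy3 to TRIM38_copy13, and 3 of them covered all 6. Scaffold 397 had 3 loci over 21.7 kb, from TRIM38_copy29 to TRIM38_copy53. Scaffold 142 had 2, TRIM38_copy17 and TRIM38_copy26, and scaffold 1 had 2, TRIM38_copy55 and TRIM38_copy36. Neither of the last 2 runs held a model of all 6 stretches.

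**Figure D4:**
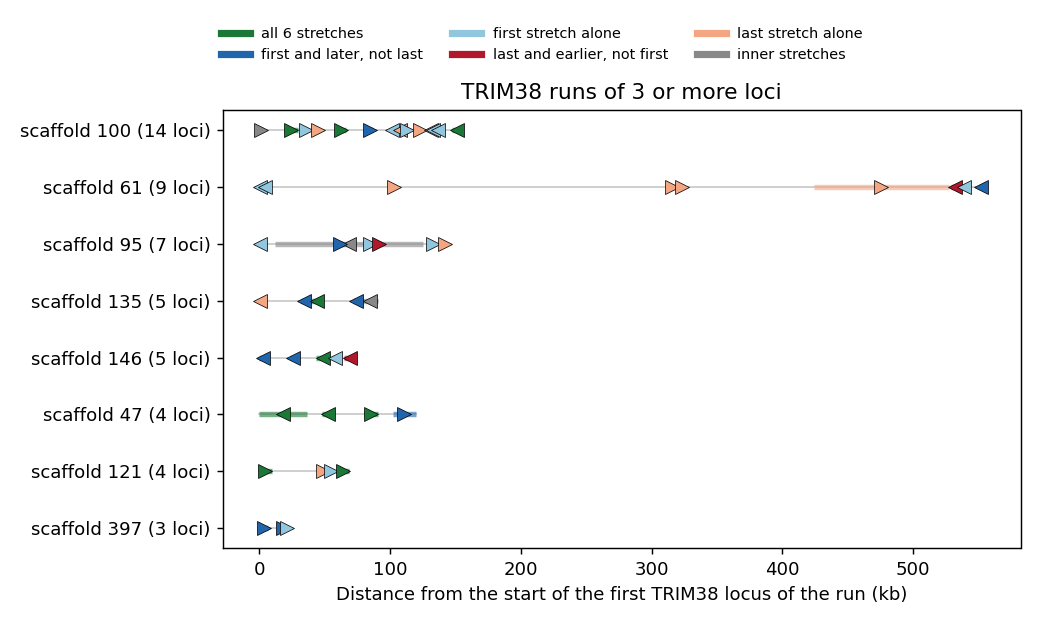
TRIM38 loci in the runs of 3 or more, 1 scaffold per row, placed by distance in kb from the start of the first locus; triangles point along the strand, thick bars give the span of the model, and colours give the part of the reference covered. The run of scaffold 100 packs 14 loci into 156 kb, and the 9 loci of scaffold 61 spread over 554 kb with no model of all 6 stretches.

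Some neighbouring models covered successive parts of the reference on the same strand in the matching order. Of the 45 pairs of neighbouring tandem TRIM38 loci, 9 (20%) were such pairs, against 25.8% of all tandem pairs in the annotation. The same strand was shared by 38 of the 45 (84.4%), a share that was not computed for all tandem pairs. The closest were TRIM38_copy17 and TRIM38_copy26, 150 bases apart, which covered reference bases 1469 to 1974 and 609 to 1327. The pair on scaffold 1, 4.09 kb apart between ACVR1 and UPP2, covered 590 to 962 and 1349 to 1738. If each of the 9 pairs were parts of 1 gene, the TRIM38 count would be 54. One pair on different scaffolds had the same values: TRIM38_copy52 on scaffold 3732 and TRIM38_copy53 on scaffold 397 both had 1 exon of 441 bases, the same reference interval and 18.4% of the highest score.

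Among the 63 TRIM38 models, 5 spanned 20 kb or more. Such spans were more common in the whole annotation, where the upper quartile over all loci with a symbol was 26.2 kb, against 8.41 kb for TRIM38. The longest TRIM38 model, TRIM38_copy34 on scaffold 95, spanned 113 kb, and other TRIM38 loci lay within its span. Its coding length was 737 bases in 4 exons, of which 71% aligned to the reference.

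The neighbours of the scaffold 47 run corresponded to the neighbours of mouse Trim38 on one side. The linker histone gene HIST1H1A ended 84.8 kb before TRIM38_copy3, with OR2J3 between them, and the 4 TRIM38 loci were the last annotated on the scaffold. In the mouse Hist1h1a lies 18.2 kb from Trim38 with 0 coding genes between, and Slc17a2, a solute carrier gene, lies 19.3 kb away on the other side, also with 0 between. In the mole SLC17A2 and SLC17A3 were the loci 2 and 3 of scaffold 40, from 112776 to 123193 and from 147028 to 154962. The genes that flank mouse Trim38 thus lay near the ends of 2 scaffolds in talOcc3. In the later mole assembly MPIMG_talOcc4v2.1, 61 loci lay between SLC17A3 and H1-1, 36 of them protein-coding, 9 pseudogenes, 14 long noncoding RNAs, 1 snRNA and 1 snoRNA. All 61 had LOC names, and the table used here gave the symbol TRIM38 to no gene of that assembly, so how many are TRIM38 was not determined.

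TRIM5, TRIM6, TRIM22 and TRIM34 are neighbours in the human genome and include antiviral factors. TRIM5, which recognises retroviral capsids, had 11 loci on 9 scaffolds. The highest-scoring, on scaffold 262 (33737 to 45451, plus strand), had 7 exons and 1033 coding bases, 69.3% of the mouse gene's 1491. TRIM5_copy2 on the same scaffold was at 87.8% of its score and TRIM5_copy3 on scaffold 1984 at 77.5%. The 5 single-exon TRIM5 loci were at 59.4% to 61.6%, and all of them began at base 272 or 332 of the reference and ended by base 722, within the first part. The lowest, TRIM5_copy11, was at 27%.

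TRIM34 showed the other end of its reference. Its highest-scoring model, on scaffold 18 (41326729 to 41333319, minus strand), had 7 exons and 1329 coding bases, and lay 16.9 kb from TRIM6, which had 7 exons and 1464 coding bases, the mouse value. The other 4 TRIM34 loci had 1 exon each, were at 9.3% to 13.2%, and began at reference base 1308 or later. On scaffold 209, with all 4 TRIM loci on the minus strand, TRIM34_copy4 lay 1.1 kb from TRIM5_copy9 and TRIM34_copy2 lay 0.656 kb from TRIM5_copy10. TRIM5_copy9 covered bases 332 to 719 of the TRIM5 reference and TRIM5_copy10 covered 749 to 1157, where the highest-scoring TRIM5 model covered 332 to 1264. TRIM22 had 1 single-exon locus of 419 bases on scaffold 279.

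Of the 18 loci of these 4 symbols, 9 lay on a scaffold that also held a locus named ATP5F1, a subunit of ATP synthase, and 8 were the only locus of their scaffold. ATP5F1 had 6 loci, and 4 of them lay within 10 loci of these TRIM genes. Those on scaffolds 262, 279 and 209 could not lie farther, as these scaffolds held only 3, 3 and 5 loci. The highest-scoring ATP5F1 locus, with 7 exons on scaffold 21, was not among the 4, whose scores were 23.2% to 32.4% of it. ATP5F1 was chosen after its values were seen, and no such shares were computed over all loci.

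TRIM60 and TRIM61 lie next to each other in the human genome. TRIM61 had 6 loci, all with a single exon, 5 of them in tandem on scaffold 1 between 82857926 and 82907839. In those 5 the interval aligned to the reference made up 10.9% to 17.2% of the coding length. TRIM61_copy4 and TRIM61_copy5 had the same length of 1377 bases, the same reference interval and 90.9% of the highest score. The sixth, on scaffold 13 from 45848001 to 45848610, was aligned to a protein reference with a highest score of its own. TRIM60 had 2 loci near TRIM35 on scaffold 13, TRIM60_copy3 with 3 exons at 86.1% and TRIM60_copy5 with 1 exon at 39.4% of a highest score that no locus analysed here holds.

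The other pairs differed in kind. TRIM2, a neuronal ligase, had 2 models 65 bases apart on scaffold 1, of 5 exons and 1302 bases and of 7 exons and 867 bases. They covered reference bases 199 to 1501 and 1567 to 2431 in order on the minus strand, and the mouse gene has 12 exons and 2310 bases. TRIM31_copy2 lay 33.6 kb from TRIM31 on scaffold 48 and had 24.9% of its score. The second loci of TRIM37, a gene of the centrosome and of mulibrey nanism, of the chromatin regulator TRIM66, and of TRIML2 lay on other scaffolds than the first, at 9.75%, 10.2% and 53.8%.

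Across the subfamilies, 54 of the 69 listed TRIM symbols had a locus. The PRY-SPRY subfamily held 34 symbols, of which 20 had 1 locus, 4 had several (TRIM5, TRIM34, TRIM38 and TRIM60) and 10 had none. Those with none were TRIM4, TRIM17, TRIM43, TRIM48, TRIM49, TRIM51, TRIM58, TRIM64, TRIM75 and TRIM77. The list without a known C-terminal domain held 8, of which TRIM8 and TRIM56 had 1 locus, TRIM31 and TRIM61 several, and TRIM40, TRIM52, TRIM73 and TRIM74 none. TRIM59, a membrane-anchored member, had no locus, and TRIM13, the other one, had 1. Of the 15 symbols without a locus, 5 (TRIM17, TRIM40, TRIM52, TRIM58 and TRIM59) were named in the later assembly. In turn 9 of the 54 talOcc3 symbols, TRIM38 among them, were not used in the later table.

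Every member of the remaining subfamily lists had a locus, and those with more than 1 were TRIM2, TRIM37, TRIM66 and TRIML2. The 4 listed microtubule-associated members with COS, fibronectin and SPRY domains (TRIM9, TRIM36, TRIM46 and TRIM67) had 1 locus each and a median of 11 exons. The 3 muscle ring finger members TRIM54, TRIM55 and TRIM63 had 1 locus each and a median of 9 exons, and TRIM42 had 1 locus of 5. The chromatin regulators with PHD and bromodomain had many exons, 22 in TRIM24, 21 in TRIM66, 20 in TRIM33 and 18 in TRIM28, the corepressor of KRAB zinc finger proteins. TRIM37, the member with a MATH domain, had 30. Of the NHL-repeat members TRIM3 had 11 exons and TRIM32 a single one. TRIM23, which ends in an ARF domain, had 11 exons, and TRIM45, with a filamin domain, had 6. Among members without a RING, TRIM14, TRIM16 and TRIM29 had 1 locus each with 6, 6 and 9 exons.

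Models of single-locus members were close to the mouse in length. For the 43 TRIM genes named once in both species, the mole coding length had a median of 99.7% of the mouse's (quartiles 83.2 and 101), against 100% (89.6 and 106) for all 12411 such genes. Under 50% of the mouse length were 2 of the 43 (4.65%, against 4.78% of all): TRIM26, with 261 against 1635 bases and 3 against 8 exons, and TRIM44, with 465 against 1035 bases. The exon number was the same in both species for 25 of the 43 (58.1%), against 41.8% of all. TRIM13, TRIM32 and TRIM56 had a single coding exon in both species.

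**Figure D5:**
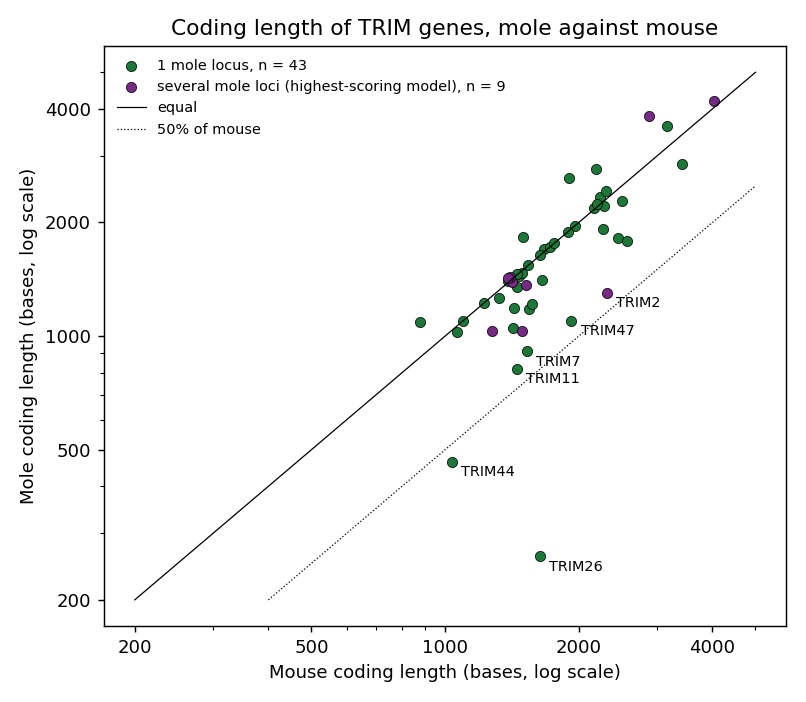
Coding length in the mole (vertical axis) against the mouse (horizontal axis), in bases on log scales, for 43 TRIM symbols with 1 mole locus and 9 with several, the latter by their highest-scoring model; the solid line is equality and the dotted line 50%. Most points lie near equality, TRIM26 (16%) and TRIM44 (44.9%) lie below the dotted line, and labels mark the symbols under 60%.

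Gene order around single-locus members was also shared. With the nearest genes named once in both species on each side, 37 of the 39 TRIM genes that could be placed kept both neighbours in the mouse (94.9%), against 89.1% of all such genes. TRIM6 and TRIM41 were the 2 that lost one. TRIM genes lay beside each other in several places: TRIML1 and TRIML2 24.4 kb apart on scaffold 13, TRIM7 and TRIM41 26.4 kb apart on scaffold 21, TRIM47 and TRIM65 4.61 kb apart on scaffold 28, and TRIM68 and TRIM21 109 kb apart on scaffold 18 with 3 loci between. Scaffold 48 held TRIM31, TRIM10, TRIM15 and TRIM26 in that order, with TRIM10 and TRIM15 3.64 kb apart.

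Most listed signalling partners of TRIM38 had a single locus, while several butyrophilins had many. A single locus was also the usual case over the annotation, where 14.6% of all symbols had more than 1. Of 15 listed partners of innate signalling, 11 had 1 locus, among them TRAF6, TAB2 and TAB3, IRF3 had 2, and TICAM1, DDX58 and IRF7 had none, of which TICAM1 and IRF7 were named in the later assembly. Genes of the TRIM type with other names, MID1, MID2, PML and MEFV, fell outside the naming rule and had 1 locus each. Among 9 listed butyrophilins and relatives, many of which share the PRY-SPRY domain, BTN1A1 had 14 loci, BTNL2 had 10, BTN3A3 had 6 and BTN2A1 had 3. BTN2A2, BTNL9 and ERMAP had 1 each, and BTN3A1 and BTN3A2 had none.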

How the data were processed

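The file analysed was the annotation of talOcc3, with 1-based positions as deposited; no column held per-library values. The authors deposited a score on each transcript model, the highest score of the symbol and the interval of a reference transcript. The sources used here do not say what that score counts or how models labelled EVM and exonerate arose. STAR 2.6.1d and mm9 appear in the submitters' processing notes without a stated role.

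Gene lines were joined to transcripts and coding exons with scipy 1.17.1 and numpy 2.4.6 under Python 3.11.15, and figures were drawn with matplotlib 3.10.9. Copy suffixes and low-confidence marks were removed from names. Successive-part pairs were neighbouring tandem loci on the same strand whose reference intervals followed in gene order, sharing at most 30 bases. Intervals are exact binomial for shares and from order statistics for medians, at 95%. Mouse coding exons came from GENCODE M21; the later mole assembly gave names and gene order only. No genome sequence of talOcc3 was used, so no sequence is printed. The steps were tested on simulated data. All 200 tandem symbols, 100 successive-part pairs and 50 rows of exon lengths placed there were found. Of 200 added loci, 178 had a locus of their own symbol nearest.

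Members, subfamily lists and the naming rule were chosen with earlier results of these data known. The rule named symbols with several, tandem, single-exon or neighbouring TRIM loci, extremes of exon number, list members without a locus and the first of each list, and of TRIM38 the 10 highest-scoring loci and the ends of each run; any other locus was named with its values in view. No comparison between libraries was made.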

Additional observations from a re-analysis of the deposited data

How the results depend on the processing

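No paired analysis was possible because no column held values per library. Leaving out low-confidence lines changed none of the 13 results it was tried on. As no TRIM locus carried that mark, the counts, exon numbers, lengths and scores of TRIM loci could not change there. Keeping loci that reach 50% of the top score of their symbol, 78 TRIM loci, 5 symbols with several loci, 4 symbols with tandem loci and 10 TRIM38 loci were left, of which 8 were tandem with a longest run of 3. The single-exon share became 19.2% for TRIM and 0% for TRIM38 (upper limit 30.8%), the median exon number 6 for both, the median TRIM38 coding length 1401 bases and the share with a TRIM38 locus nearest 75%. With more than 1 exon, 91 TRIM loci, 6 symbols with several, 4 with tandem loci and 34 TRIM38 loci were left, 28 in tandem and at most 5 in a run. Median exon numbers were then 6 and 5, the median TRIM38 score 42.1% and its coding length 867 bases. On scaffolds annotated to 1000000 or beyond, 66 TRIM loci and 6 TRIM38 loci were left, all 6 in tandem, at most 4 in a run. There the single-exon shares were 19.7% and 16.7%, both median exon numbers 6, the TRIM38 score 68.1%, the coding length 1224 bases and the nearest share 100%. Taking names as written left 1 symbol with several loci and 1 TRIM38 locus. With 0 loci between tandem loci, 4 symbols were tandem. The other 28 alternatives, which include those chosen after seeing the data, stayed within 1.5 times the count or within the interval. Alternatives chosen after seeing the data left 10 loci covering all 6 stretches when 80% of each had to be covered, 8 or 9 successive pairs with 0 or 60 shared bases allowed, and 31 loci when only the first 2 of the 3 exon lengths were required in a row. Library depth is unknown, and none of these values is computed from it.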
